A study of Drosophila melanogaster with 6 samples.

Results

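The mitochondrial ribosomal protein genes of Drosophila melanogaster were examined in eggs whose mothers overexpressed either wild-type MEK or MEK F53S. Members were all genes of the deposited tables whose FlyBase identifier maps to a symbol that starts with mRpL or mRpS. No measured value entered that rule, but earlier results of these data were known when the set was chosen. The tables list 13943 genes, and 72 of them were members, 47 of the large subunit (mRpL) and 25 of the small subunit (mRpS). One more symbol of this kind, mRpS5, has no row in the tables and was not analysed here. All 72 members passed the filter on low counts, which left 7539 genes for testing.

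MEK phosphorylates and switches on ERK in the RAS pathway, and the labels describe F53S as a gain-of-function form linked to RASopathies, a family of developmental disorders. Both groups carried an overexpression construct at one shared genomic position, driven in the maternal germline by the MTD-GAL4 drivers, and all mothers had been mated to sterile males. The eggs, labelled as unfertilized, were collected over 0 to 30 min in pools and kept in RNA-later before RNA was extracted. Each group holds 3 libraries that the submitters call biological replicates, so p-values measure the spread between these pools. The groups are different fly lines, so transgene and genetic background cannot be told apart, and no group without a MEK transgene is among the 6 libraries.

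Mitochondria carry their own ribosome, which descends from that of bacteria and translates the few respiratory chain subunits encoded by mitochondrial DNA. Its ribosomal RNAs are mitochondrial transcripts, but all of its proteins are encoded in the nucleus, translated in the cytosol and imported. Some members have a homologue in the bacterial ribosome and others exist only in mitochondria. The egg receives both its mitochondria and its first supply of these transcripts from the mother.

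Libraries held between 37224814 and 48756295 estimated counts, and between 99.978% and 99.991% of them fell in tested genes. Transcripts of the overexpressed gene, Dsor1, had levels of 1489, 1160.3 and 1462 normalised CPM (read counts scaled to library size) with wild-type MEK and 1601, 1212 and 1196 CPM with MEK F53S, and its difference was not called (log2 fold change -0.04, edgeR adjusted p = 0.88). All 8 markers of the egg were present in every library, but not at equal levels. Of these, 3 were called higher in MEK F53S and 2 lower, or 62.5% against 25.2% of all tested genes. bcd had 568, 592 and 565 TPM with wild-type MEK and 157, 200 and 193 TPM with MEK F53S. grk went the other way, with 55.7, 56.2 and 54.2 TPM against 116, 86.5 and 106 TPM. Of 10 eggshell genes of follicle cells 8 were at 0 in all libraries, with at most 14 counts for the list in a library. Of 6 testis and sperm genes 5 were at 0 in all libraries, with at most 7 counts in a library. Of 11 early zygotic genes kni and ftz were at 0 in all libraries. The counts of sisA, a gene switched on very early in the embryo, were 1, 0 and 0 with wild-type MEK and 277, 46 and 465 with MEK F53S. Kr had 0, 5 and 0 counts in the former and 34, 22 and 107 in the latter, and eve had 0, 0 and 2 against 12, 0 and 123. The summed level of the early zygotic list was 277, 289.8 and 302 TPM (a share of all transcripts, corrected for length) with wild-type MEK and 194, 211 and 232 TPM with MEK F53S, most of it from slam, with 263, 275 and 287 TPM against 152, 201 and 166 TPM. The part of these transcripts in the results on members was not tested.

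As a group, these transcripts were of ordinary abundance in TPM. Their median level was 47.1 TPM, against 50.5 TPM over all tested genes, and their mean levels ran from 4.13 to 313 TPM. The medians of the subunits were 45.6 TPM for large and 48.6 TPM for small. Cytosolic ribosomal protein genes had a median level of 1566 TPM. Members below 20 TPM numbered 7 and members above 100 TPM numbered 14, and the 10 highest members made up 38.2% of the summed mean TPM of all 72. Most proteins of a ribosome are present in a single copy each, and the levels of their transcripts in these eggs spanned a wide range.

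**Figure D1:**
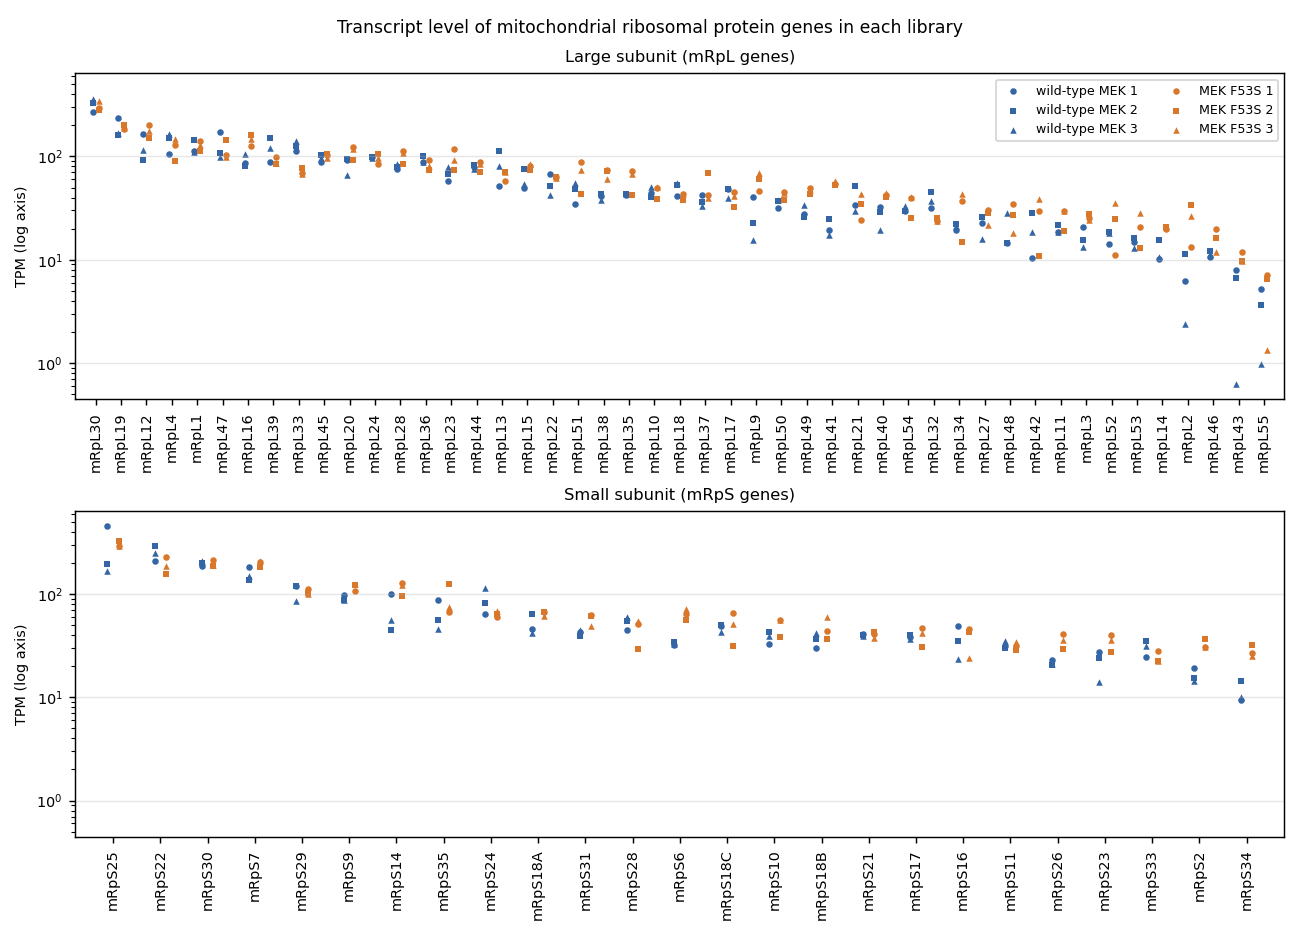
Level of every mitochondrial ribosomal protein transcript in each of the 6 libraries, in TPM on a log axis, with large-subunit genes above, small-subunit genes below and each panel ordered by mean level. Means fall from 313 TPM (mRpL30) to 4.13 TPM (mRpL55) in the large subunit and from 289 TPM (mRpS25) to 19.7 TPM (mRpS34) in the small subunit.

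mRpL30, a large-subunit protein with a bacterial homologue, had the highest mean level. Its values were 267, 326 and 362 TPM with wild-type MEK and 298, 283.5 and 342 TPM with MEK F53S. The groups overlapped, and the difference was not called (log2 fold change -0.11 ± 0.17 SE, edgeR adjusted p = 0.674). mRpS25, a small-subunit protein specific to mitochondria, came next with a mean of 289 TPM, but its values were 460.2, 194 and 169 TPM with wild-type MEK and 295, 329 and 289.995 TPM with MEK F53S. The MEK F53S libraries lay close together, while wild-type MEK replicate 1 was above and the other wild-type MEK replicates were below all of them. Over all 6 libraries mRpS25 was not called (log2 fold change 0.22 ± 0.31 SE, edgeR adjusted p = 0.636), and without wild-type MEK replicate 1 it was higher in MEK F53S (log2 fold change 0.74, adjusted p = 0.00248).

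The next in the order of levels also overlapped between groups. mRpS22, specific to mitochondria, had 211, 291 and 248 TPM with wild-type MEK and 229.95, 156 and 189 TPM with MEK F53S, a log2 fold change of -0.25 ± 0.20 SE (edgeR adjusted p = 0.403). mRpS30, which despite its name sits in the large subunit in mammals, had 185, 199 and 209 TPM with wild-type MEK and 212, 188 and 191 TPM with MEK F53S. mRpL19 had 234, 161 and 169 TPM with wild-type MEK and 186, 202 and 189 TPM with MEK F53S. The log2 fold changes of mRpS30 and mRpL19 were 0.01 ± 0.13 and 0.04 ± 0.17 (SE), with edgeR adjusted p of 0.975 and 0.901. From mRpS25 down to mRpL19 the ranges over libraries overlap, and the range of mRpL30 overlaps those of mRpS25 and mRpS22. The order of genes whose ranges overlap is not set by these data.

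Of the 72 members, 9 were called higher in MEK F53S eggs, 1 was called lower and 62 were not called at an adjusted p under 0.05 in the quasi-likelihood test of edgeR. Over all tested genes 12.3% were called higher and 12.9% lower, 25.2% in all. The 12.5% of members called higher is close to that background and the 1.39% called lower is below it. Members rest on fewer reads, with a median of 12.5 normalised CPM against 44.3 over all tested genes. Their median SE was 0.23 against 0.18, and the part of read depth in these shares was not tested. Leaving out MEK F53S replicate 3 or either of wild-type MEK replicates 2 and 3 left 4 called higher, leaving out MEK F53S replicate 1 left 5, and leaving out wild-type MEK replicate 1 gave 5 called lower. Over all tested genes the higher calls also went from 930 to 424 without wild-type MEK replicate 2, 474 without wild-type MEK replicate 3, 512 without MEK F53S replicate 1 and 495 without MEK F53S replicate 3, and the lower calls from 970 to 1310 without wild-type MEK replicate 1. The direction of the fitted values leaned upward. A positive log2 fold change was found for 53 members, or 73.6%, against 53.8% of all tested genes. The median log2 fold change of members was 0.28, with quartiles of -0.04 and 0.51, beside a median of 0.05 and quartiles of -0.30 and 0.41 over all tested genes. The members' median was 0.15 without MEK F53S replicate 1 and 0.17 without wild-type MEK replicate 3. It was 0.18 once a trend with gene length in each library's log2 CPM, taken relative to gene means, was removed. In these fits 42, 48 and 44 members were positive. In normalised CPM, all MEK F53S libraries were above all wild-type MEK libraries for 17 members and below them for 4, where 21.2% of all tested genes were above and 21.2% below.

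**Figure D2:**
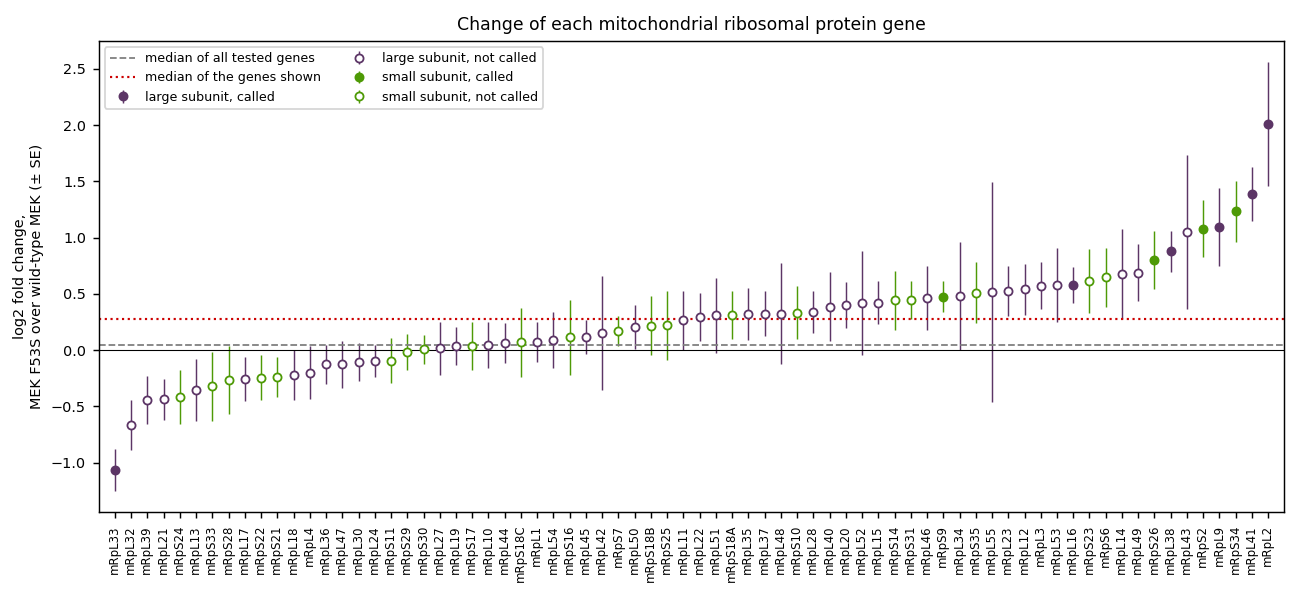
Log2 fold change of MEK F53S over wild-type MEK for each member, with bars of 1 SE from the edgeR fit, ordered by value, coloured by subunit and filled where called, with lines at the median of members (0.28) and of all tested genes (0.05). Values run from -1.06 (mRpL33) to 2.01 (mRpL2), and 53 of 72 are above 0.

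Both subunits showed this lean. Large-subunit members had a median log2 fold change of 0.31, with 35 of 47 positive, 5 called higher and 1 called lower. Small-subunit members had a median of 0.22, with 18 of 25 positive, 4 called higher and 0 called lower, also with DESeq2. Of these 25, 6 had an unadjusted p under 0.05 in the edgeR fit, as did 2886 of all 7539 tested genes. Placing mRpS30 and mRpS18A with the large subunit, as in mammals, left both medians at 0.31 and 0.22. Members were also classed by the number in their symbol alone, so single members can be in the wrong class. Those classed as having a bacterial homologue had a median of 0.17 over 43 genes with 5 called higher and 1 lower. Those classed as specific to mitochondria had a median of 0.32 over 29 genes, of which 24 were positive and 4 were called higher. Whether the subunits or these classes differ was not tested.

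mRpL41 (FBgn0034001; 2R, 15217024 to 15217617 in dm6), a large-subunit protein specific to mitochondria, was the member with the smallest p. Its level was 4.09, 4.49 and 3.13 CPM with wild-type MEK and 10.2, 9.30 and 11.1 CPM with MEK F53S. The groups lay far apart, and mRpL41 rose 2.62-fold, from 3.90 ± 0.702 to 10.2 ± 0.912 CPM (SD, n = 3 per group; log2 fold change 1.39 ± 0.24 SE, edgeR adjusted p = 0.00336). In TPM the group means of mRpL41 were 20.4 and 54.8. mRpL38 (FBgn0030552; X, 14226289 to 14227949), which lies in the central protuberance of the large subunit in mammals, had 10.7, 9.49 and 9.08 CPM with wild-type MEK and 20.6, 16.8 and 16.5 CPM with MEK F53S. Every MEK F53S library exceeded every wild-type MEK library, and mRpL38 rose by 0.88 ± 0.18 on the log2 scale, or 1.84-fold (edgeR adjusted p = 0.00819).

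The other large-subunit members called higher have homologues in bacteria. mRpL2 (FBgn0036135; 3L, 11120847 to 11122041), the homologue of a core protein near the peptidyl transferase centre, rested on few reads, with 48, 61 and 15 estimated counts with wild-type MEK and 104, 272 and 262 with MEK F53S. Its level in those libraries was 1.05, 1.79 and 0.419 CPM with wild-type MEK and 2.56, 5.61 and 4.95 CPM with MEK F53S. The groups did not overlap, but both were widely spread, and this gene had the largest fitted rise among members (log2 fold change 2.01 ± 0.55 SE, edgeR adjusted p = 0.0255). That call was lost without wild-type MEK replicate 3 (log2 fold change 1.60, adjusted p = 0.0626), without MEK F53S replicate 2 (1.79, 0.0835) and without MEK F53S replicate 3 (1.91, 0.0783).

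mRpL16 (FBgn0023519; X, 1890256 to 1891482), whose bacterial homologue lies near the A site, is more abundant, with 16.9, 15.5 and 18.7 CPM with wild-type MEK and 24.8, 24.5 and 27.1 CPM with MEK F53S. The groups did not overlap, and its log2 fold change was 0.58 ± 0.16 SE (edgeR adjusted p = 0.0257), but the call ended when wild-type MEK replicate 2 (adjusted p = 0.127), wild-type MEK replicate 3 (0.0525), MEK F53S replicate 1 (0.0758) or MEK F53S replicate 3 (0.105) was left out. mRpL9 (FBgn0038319; 3R, 15330738 to 15331588), whose bacterial homologue sits at the base of the L1 stalk, had 5.01, 3.17 and 2.01 CPM with wild-type MEK and 6.47, 6.66 and 8.72 CPM with MEK F53S. Its wild-type MEK libraries were more spread than the distance between the nearest libraries of the groups, and its log2 fold change was 1.10 ± 0.35 SE (edgeR adjusted p = 0.0452). This call held without wild-type MEK replicate 1 and was lost without any other library, with adjusted p between 0.0781 and 0.152.

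mRpL33 (FBgn0040907; X, 4321764 to 4322231) was the only member called lower. Its bacterial homologue is a small protein near the site where tRNA leaves the ribosome. The levels were 22.0, 27.8 and 32.3 CPM with wild-type MEK and 12.5, 14.1 and 12.7 CPM with MEK F53S. All MEK F53S libraries were low and close together, and mRpL33 fell from 27.3 ± 5.17 to 13.1 ± 0.879 CPM, which is 2.09-fold lower (log2 fold change -1.06 ± 0.19 SE, edgeR adjusted p = 0.0036). At 113, 125 and 141 TPM with wild-type MEK it lay above 100 TPM in all of those libraries, and at 68.7, 78.1 and 68.2 TPM with MEK F53S below 100 in all.

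Some other members had lower values in MEK F53S without passing the test. mRpL32 (3R, 31252872 to 31253686), another homologue of a bacterial protein, had 7.57, 10.1 and 8.74 CPM with wild-type MEK and 5.81, 5.32 and 5.45 CPM with MEK F53S. These groups did not overlap, and the adjusted p of edgeR was just above the threshold (log2 fold change -0.67 ± 0.22 SE, adjusted p = 0.0516). DESeq2 gave an adjusted p of 0.0316 and leaving out wild-type MEK replicate 1 one of 0.023, both under the threshold. mRpL21 (3L, 19253290 to 19255061) had 13.7, 15.6 and 12.9 CPM with wild-type MEK and 9.50, 10.3 and 11.3 CPM with MEK F53S. Its groups also stood apart without a call (log2 fold change -0.44 ± 0.18 SE, adjusted p = 0.111), and with the deposited effective lengths as an offset the log2 fold change was 0.07.

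mRpL39, mRpS24 and mRpL17 completed the 6 members with the smallest p among those with lower values, and in each of them the groups overlapped. mRpL39, specific to mitochondria, had 36.4, 65.0 and 53.1 CPM with wild-type MEK and 43.4, 32.3 and 37.9 CPM with MEK F53S, a log2 fold change of -0.44 (edgeR adjusted p = 0.16). mRpS24 had 12.5, 16.0 and 23.7 CPM with wild-type MEK and 12.6, 12.1 and 14.3 CPM with MEK F53S, a log2 fold change of -0.42 (adjusted p = 0.228). In both, wild-type MEK replicate 1 was the lowest of its group, and without it the adjusted p of edgeR was 0.0128 for mRpL39 and 0.039 for mRpS24. The log2 fold change of mRpL17 was -0.26 (adjusted p = 0.359). Exons of mRpS24 and mRpL17 overlap TBC1d7 and CG34263 on the other strand over 55.3% and 23.6% of their bases, which leaves their values uncertain.

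Among small-subunit members, mRpS34 (FBgn0285951; 3L, 16348074 to 16348782) had the smallest p. It is specific to mitochondria, and its human counterpart MRPS34 is mutated in a form of Leigh syndrome. The levels were 2.58, 4.11 and 3.16 CPM with wild-type MEK and 7.41, 8.56 and 7.15 CPM with MEK F53S. The groups were well separated, and mRpS34 rose 2.35-fold, from 3.28 ± 0.772 to 7.70 ± 0.749 CPM (log2 fold change 1.23 ± 0.27 SE, edgeR adjusted p = 0.0103). mRpS2 (FBgn0031639; 2L, 4849439 to 4850419), with a bacterial homologue, had 3.90, 3.17 and 3.07 CPM with wild-type MEK and 7.06, 7.50 and 6.90 CPM with MEK F53S. Both groups were tight, and mRpS2 rose 2.11-fold (log2 fold change 1.08 ± 0.25 SE, edgeR adjusted p = 0.0129), with an adjusted p of 0.0501 once wild-type MEK replicate 2 was left out.

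The remaining calls in the small subunit were nearer the threshold. mRpS9 (FBgn0037529; 3R, 7889277 to 7902667), whose bacterial homologue reaches with its tail to the tRNA in the P site, had 36.7, 32.4 and 34.3 CPM with wild-type MEK and 45.8, 46.3 and 51.8 CPM with MEK F53S. The groups did not overlap, and its log2 fold change of 0.48 ± 0.14 SE (edgeR adjusted p = 0.0329) was the smallest among the 10 calls. Its exons overlap ArgRS-m on the other strand over 25.1% of their bases, and the call ended when wild-type MEK replicate 2 (adjusted p = 0.157), wild-type MEK replicate 3 (0.112), MEK F53S replicate 1 (0.0829) or MEK F53S replicate 3 (0.144) was left out. mRpS26 (FBgn0036774; 3L, 18106579 to 18107499), specific to mitochondria, had 4.44, 4.32 and 4.47 CPM with wild-type MEK and 9.28, 5.69 and 8.08 CPM with MEK F53S. Wild-type MEK libraries were almost equal while MEK F53S replicate 2 lay well below the other MEK F53S replicates, and the log2 fold change was 0.80 ± 0.26 SE (edgeR adjusted p = 0.0481). The mRpS26 call held without MEK F53S replicate 2 and was lost without any other library, with adjusted p between 0.0678 and 0.173.

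The 10 calls differed in how well they held. mRpL41, mRpL33, mRpL38 and mRpS34 were called under all 16 alternatives tried, 6 of which left out 1 library each. mRpS2 was called under 15 alternatives, mRpL2 under 12, mRpL16 under 10, mRpS9 under 9, and mRpL9 and mRpS26 under 8. With the replicate number as a block, mRpS9, mRpL9 and mRpS26 had adjusted p of 0.075, 0.07 and 0.0856 and were not called.

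Members with lower levels tended to have higher log2 fold changes and larger errors. Across the 72 genes, log2 fold change and mean TPM had a Spearman rho of -0.38, a description of genes that share the same 6 libraries, and the rho with transcript length was 0.05. The 36 members at or below the median TPM had a median log2 fold change of 0.33 and 6 called higher, with a median SE of 0.26. The 36 above it had a median of 0.14 with 3 called higher and 1 lower, and a median SE of 0.20. The 5 members with the lowest mean TPM were mRpL55, mRpL43, mRpL46, mRpL2 and mRpL14, all of the large subunit. mRpL55, at the bottom of the order, had 34, 18 and 5 estimated counts with wild-type MEK and 41, 41 and 10 with MEK F53S. Its groups overlapped, and no difference was detectable at that depth (log2 fold change 0.52 ± 0.98 SE, edgeR adjusted p = 0.735).

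mRpL43, also specific to mitochondria, had 106, 70 and 7 estimated counts with wild-type MEK and 151, 134 and 160 with MEK F53S. Wild-type MEK replicate 3 was far below the others of its group, and the log2 fold change of 1.05 ± 0.69 SE was not called (edgeR adjusted p = 0.296). mRpL46 had 3.61, 4.08 and 4.08 CPM with wild-type MEK and 6.89, 5.07 and 4.29 CPM with MEK F53S, a log2 fold change of 0.46 ± 0.29 SE (adjusted p = 0.265). mRpL14, whose bacterial homologue lies at the face that meets the small subunit, had 10.1, 15.6 and 10.6 TPM with wild-type MEK and 20.0, 20.8 and 20.9 TPM with MEK F53S. The groups of mRpL14 did not overlap in TPM or CPM, while those of mRpL46 did not overlap in CPM but did in TPM, with 11.9 TPM in MEK F53S replicate 3 and 12.2 TPM in wild-type MEK replicate 2. edgeR on the counts did not call mRpL14 (log2 fold change 0.68 ± 0.40 SE, adjusted p = 0.249), and limma on log2(TPM + 1) gave it an adjusted p of 0.0401. In that limma fit 12 members were called higher and 2 lower, against 13.9% and 7.59% of all tested genes.

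Summed over all 72 members, the level was 4858, 4782 and 4556 TPM with wild-type MEK and 5464, 5010 and 5400 TPM with MEK F53S. All MEK F53S libraries were above all wild-type MEK libraries, with means of 4732 ± 157 and 5291 ± 246 TPM (SD, n = 3 per group), or 0.473% and 0.529% of all TPM. In normalised CPM, which counts reads without regard to length, the sums were 1336, 1385 and 1352 with wild-type MEK and 1564, 1298 and 1508 with MEK F53S. There MEK F53S replicate 2 was the lowest of all 6 libraries, so the separation seen in TPM was not present in CPM. In eggs, more transcript per mitochondrion, more mitochondria and less of other RNA cannot be told apart from these values.

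The large subunit summed to 2808, 2997 and 2862 TPM with wild-type MEK and 3309, 3032 and 3340.3 TPM with MEK F53S. These sums did not overlap in TPM, but in CPM they did, with 727 in MEK F53S replicate 2, the lowest of all libraries, and 728 to 809.7 with wild-type MEK. The small subunit summed to 2049, 1785 and 1694 TPM with wild-type MEK and 2156, 1978 and 2059 TPM with MEK F53S, where wild-type MEK replicate 1 lay within the range of the other group. The ratio of small to large summed TPM averaged 0.639 ± 0.0784 in wild-type MEK eggs and 0.640 ± 0.0204 in MEK F53S eggs, a difference smaller than the spread between replicates. In wild-type MEK replicate 1 the ratio was 0.730, against 0.592 to 0.652 in the other libraries, and that library also held the highest value of mRpS25.

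The 13 protein genes of mitochondrial DNA, whose transcripts these ribosomes translate, were lower in MEK F53S. Their summed level was 59754, 59202 and 48849 TPM with wild-type MEK and 37520.0, 29108 and 33001 TPM with MEK F53S, and edgeR called all 13 lower, with a median log2 fold change of -1.28. Of the 13, limma on TPM called 10 at either pseudocount, the effective length offset left 11 and leaving out MEK F53S replicate 1 left 12. Since TPM is a share of a fixed total, a smaller mitochondrial share raises all other shares. With TPM rescaled to leave these 13 genes out, the members summed to 5013 ± 197 TPM with wild-type MEK and 5474 ± 276 TPM with MEK F53S. On that scale the groups overlapped, with 5160.1 TPM in MEK F53S replicate 2 and 5166 TPM in wild-type MEK replicate 1, and so did the sums of the large subunit, with 3123 TPM in MEK F53S replicate 2 and 3185 TPM in wild-type MEK replicate 2. The same 10 members were called when the 13 genes were left out of the fit.

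**Figure D3:**
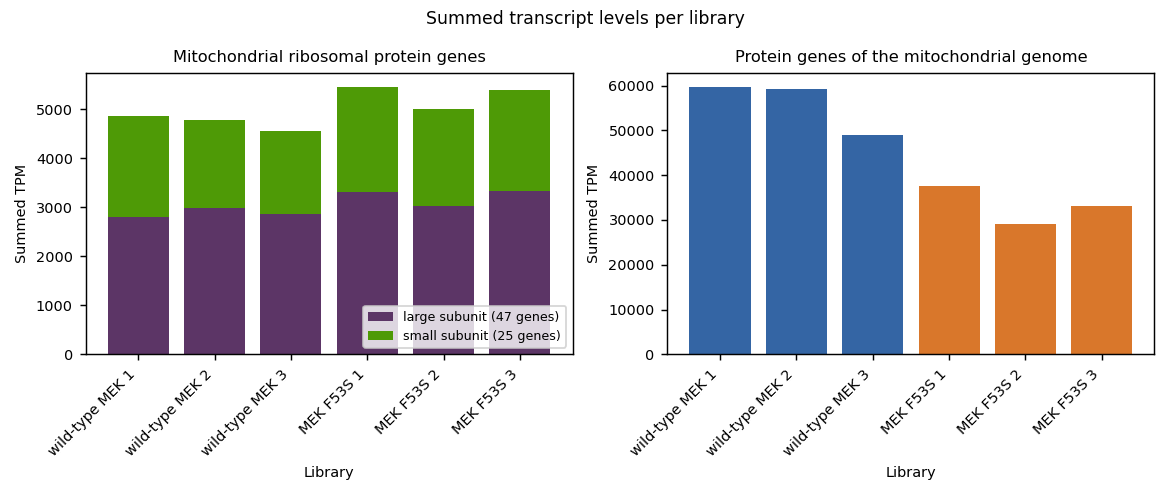
Left, summed TPM in each library as stacked bars, with the 47 large-subunit genes below and the 25 small-subunit genes on top. Right, summed TPM of the 13 protein genes of mitochondrial DNA in the same libraries; full bars on the left are 4556 to 4858 TPM with wild-type MEK and 5010 to 5464 TPM in MEK F53S libraries, while those on the right are lower in every MEK F53S library.

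Individual libraries differed in how far the members as a whole stood from their own average. The median over members of the log2 deviation from each gene's mean was -0.16, -0.01 and -0.12 in the wild-type MEK libraries and 0.26, -0.10 and 0.18 in the MEK F53S libraries. MEK F53S replicates 1 and 3 were high, while MEK F53S replicate 2 lay among the wild-type MEK libraries. MEK F53S replicate 1 held the highest value for 27 members and replicate 3 for 17, and MEK F53S replicate 2 held the lowest value for 23. Leaving out MEK F53S replicate 2 gave 10 called higher and 1 lower, of which 8 were among the 10, where 10.9% and 13.9% of all tested genes were called higher and lower. Leaving out wild-type MEK replicate 1 gave 12 higher and 5 lower, of which 9 were among the 10. Without that library, 16.9% of all tested genes were called higher and 17% lower. Counts of sisA were also lowest in replicate 2 among the MEK F53S libraries, and its part in these deviations was not tested.

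**Figure D4:**
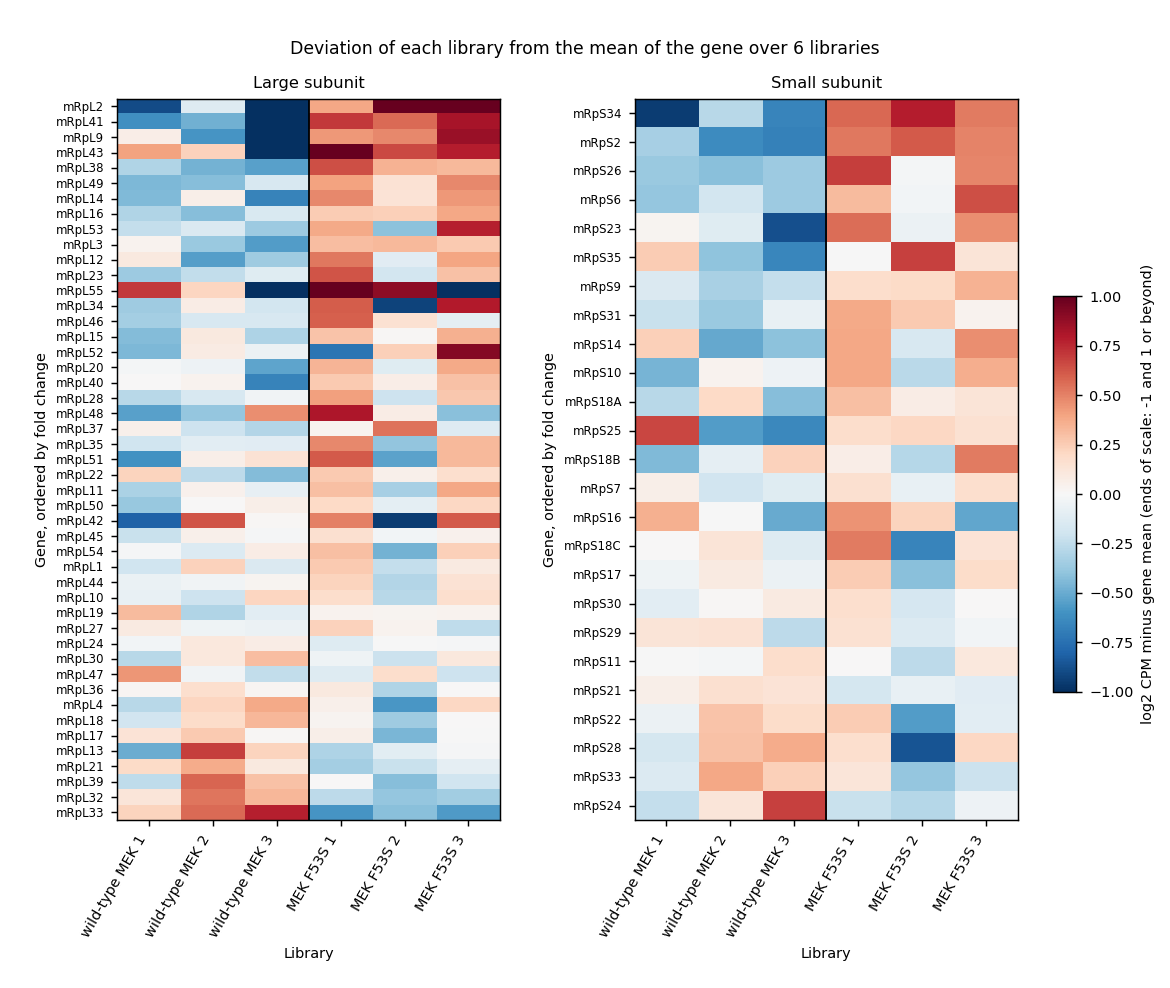
Heat map of log2 CPM of each member in each library minus the gene's mean over the 6 libraries, red above and blue below, with colours that end at -1 and 1, genes ordered by fold change and subunits in separate panels. Red prevails in MEK F53S replicates 1 and 3 (medians 0.26 and 0.18), and the column of MEK F53S replicate 2 (median -0.10) is mixed.

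Deposited lengths are weighted over a gene's transcripts and so can move between libraries. TPM divides not by these lengths but by the effective lengths, which are described further below. For 15 of the 72 members, or 20.8%, the length varied by more than 2% between libraries, against 49.2% of all tested genes. mRpL21 had the widest range, with lengths of 866, 349 and 559 bases with wild-type MEK and 529, 344.5 and 314 bases with MEK F53S, which overlapped. For mRpL27, a homologue of a bacterial protein at the peptidyl transferase centre, the lengths were 257, 523 and 279 bases with wild-type MEK and 215, 214 and 216 bases with MEK F53S. Every MEK F53S value was shorter, while the read level of mRpL27 hardly differed (log2 fold change 0.01, edgeR adjusted p = 0.972).

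mRpS6, whose bacterial homologue binds at the platform of the small subunit, had lengths of 524, 628 and 391 bases with wild-type MEK and 267.5, 267.5 and 364 bases with MEK F53S. Its levels were 32.1, 34.4 and 32.6 TPM with wild-type MEK and 64.9, 55.6 and 71.95 TPM with MEK F53S. The separation was wide in TPM, and narrower in CPM, where the log2 fold change of mRpS6 was 0.65 ± 0.26 SE (edgeR adjusted p = 0.095). mRpS21, a homologue of a bacterial protein, had a length of 475 bases in every wild-type MEK library and 266, 382 and 422 bases with MEK F53S. Its CPM were lower in every MEK F53S library, without a call (log2 fold change -0.24, adjusted p = 0.367), while its TPM overlapped between groups. The values of mRpS21 are uncertain, since 48.0% of its exon bases overlap CG8870 on the other strand, and over the alternatives its log2 fold change ran from -0.35 to 0.30. That of mRpL27 ran from -0.10 to 0.78. mRpL27, mRpS6 and mRpS21 were chosen after their values were seen, and shorter lengths are Salmon's estimates of transcript use, not measured ends.

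**Figure D5:**
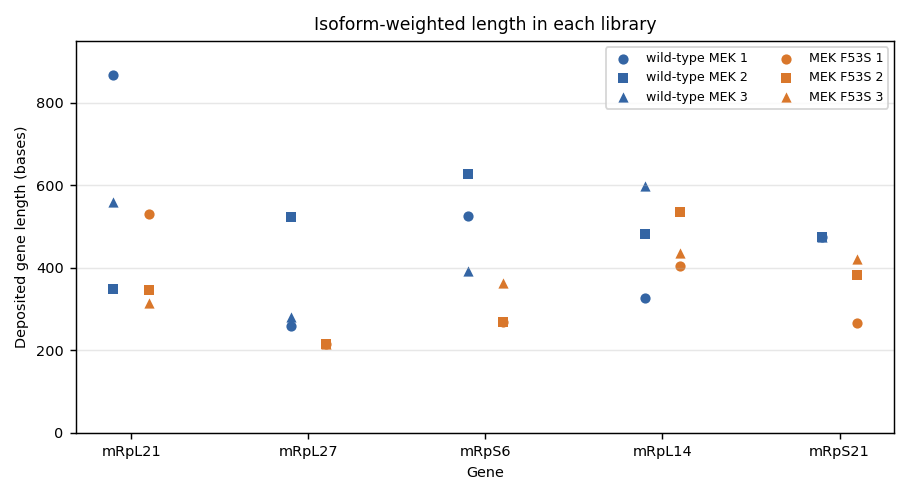
Deposited length, in bases, of the 5 members with the widest range of length between libraries, shown for each library. Lengths of mRpL27, mRpS6 and mRpS21 are shorter in every MEK F53S library than in every wild-type MEK library, while those of mRpL21 and mRpL14 overlap.

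The effective length, which Salmon derives from the length and the fragments of a library, was greater in every MEK F53S library than in every wild-type MEK library for 58 of 72 members, or 80.6%, and for 65.8% of all tested genes. The median ratio was 1.19 for members and 1.14 for all tested genes. With the effective lengths as an offset in the edgeR fit, 5 members were called higher and 1 lower, against 9.59% and 11.7% of all tested genes. The calls lost were mRpL2, mRpL16, mRpL9, mRpS9 and mRpS26, and mRpS6 was gained. With each library's trend of log2 CPM with gene length removed, 5 members were called higher and 3 lower, against 11.8% and 14.1% of all tested genes.

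By position, members lie on all major arms, with 12 on 2L, 12 on 2R, 16 on 3L, 21 on 3R and 11 on X, and no pair of members lies within 2 kb of each other. Median log2 fold changes were 0.19 on 2L, 0.13 on 2R, 0.46 on 3L, 0.08 on 3R and 0.44 on X. The X held 2 of the 9 rises and the single fall. That is 27.3% of its members called, near the 25.2% of all tested genes. Whether arms differ was not tested. Exons of 42 members overlap a gene on the other strand and those of 3 overlap one on the same strand. mRpL53 shares all of its exon bases with CG33155 on the same strand, so its counts are uncertain. Among the 62 members with under 10% of overlap, 8 were called higher and 1 lower, with a median log2 fold change of 0.28.

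Other genes of the mitochondrial translation system were taken from lists. tko and bonsai, which encode the small-subunit proteins S12 and S15 under other symbols, had log2 fold changes of 0.32 ± 0.23 and 0.29 ± 0.13 (SE) and were not called (edgeR adjusted p = 0.335 and 0.129). The levels of bonsai were 41.9, 40.0 and 39.8 CPM with wild-type MEK and 48.3, 48.5 and 52.3 CPM with MEK F53S, without overlap. Of 13 translation factors, 4 were called higher and 0 lower, also with DESeq2, with a median log2 fold change of 0.15. The shares called by edgeR are 30.8% and 0%, against 12.3% and 12.9% of all tested genes. An unadjusted edgeR p under 0.05 was found for 5 of these factors and for 2886 of all 7539 tested genes. mEFTs, the exchange factor of the mitochondrial elongation factor Tu, had 27.8, 20.9 and 19.9 CPM with wild-type MEK and 39.1, 39.2 and 39.3 CPM with MEK F53S. The groups stood apart, and mEFTs rose by 0.78 ± 0.17 on the log2 scale (edgeR adjusted p = 0.00965), with an adjusted p of 0.0523 without wild-type MEK replicate 2.

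The other factors called were CG4882, mRRF1, which recycles ribosomes, and mRF1, a release factor, with log2 fold changes of 1.31, 1.30 and 0.72 and edgeR adjusted p of 0.0164, 0.0311 and 0.0481. These calls were less firm. CG4882 was lost without MEK F53S replicate 1 or 2, mRRF1 without any library except MEK F53S replicate 2, and the call of mRF1 held only with wild-type MEK replicate 1 left out. Leaving out 1 library gave between 1 and 3 higher calls among these factors, with 1 call if either MEK F53S replicate 1 or wild-type MEK replicate 2 was left out, and 1 of them was called lower without MEK F53S replicate 2. Of 15 aminoacyl-tRNA synthetases of mitochondria, TrpRS-m and TyrRS-m were called higher (log2 fold change 0.98 and 0.69, edgeR adjusted p = 0.017 and 0.046). The list had 0 called lower and a median of -0.01. Its share called higher, 13.3%, is close to the 12.3% of all tested genes. Of the 15, 6 had an unadjusted edgeR p under 0.05, as did 2886 of all 7539 tested genes. DESeq2 called 1 of the synthetases lower. Without wild-type MEK replicate 2 or replicate 3, 0 synthetases were called, and without wild-type MEK replicate 1, 4 were called higher and 1 lower.

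Of 22 genes listed for ribosome assembly and mitochondrial rRNA maturation, 3 were called lower and 1 higher, with a median log2 fold change of 0.03. The shares are 13.6% called lower and 4.55% called higher, against 12.9% and 12.3% of all tested genes. The list is wider than its name and includes TFAM, described below. Mrm2, a methyltransferase of the large-subunit rRNA, had 37.6, 48.7 and 39.8 CPM with wild-type MEK and 23.3, 23.6 and 18.4 CPM with MEK F53S. The groups were far apart, and the mean of Mrm2 fell from 42.0 ± 5.89 CPM to 21.8 ± 2.92 CPM, with a log2 fold change of -0.95 ± 0.17 SE (edgeR adjusted p = 0.00434). mtTFB1, which methylates the small-subunit rRNA in mammals, fell by 0.62 on the log2 scale (adjusted p = 0.0202), and TFAM, which packages mitochondrial DNA, fell by 0.78 (adjusted p = 0.0187). Both calls were lost without MEK F53S replicate 3 (adjusted p = 0.0646 and 0.0707), and that of TFAM also without wild-type MEK replicate 2 (0.0543). scu, a mitochondrial dehydrogenase that is also a subunit of mitochondrial RNase P, rose by 0.55 (adjusted p = 0.0144). With MEK F53S replicate 3 or wild-type MEK replicate 2 left out, its log2 fold change was 0.47 in both fits and its call was lost (adjusted p = 0.0801 and 0.0955). One listed symbol resolved to ATPsynF, an ATP synthase gene, and the mitochondrial rRNAs were not analysed here.

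Among related sets, nuclear genes of the respiratory chain had a median log2 fold change of 0.24 with 11 of 58 called higher and 0 lower. The shares are 19.0% and 0%, against 12.3% and 12.9% of all tested genes. Of the 58, 20 had an unadjusted edgeR p under 0.05, as did 2886 of all 7539 tested genes. DESeq2 called 14 of the respiratory chain genes higher and 3 lower. It called 1161 and 1198 of all tested genes, against 930 and 970 with edgeR. Leaving out MEK F53S replicate 1 or 3 left 2 called higher, leaving out wild-type MEK replicate 2 or 3 left 3, and leaving out wild-type MEK replicate 1 gave 8 higher and 5 lower. Cytosolic ribosomal protein genes, the counterpart of the members outside the organelle, had a median of 0.04. Of these 84 genes, 2 (2.38%) were called higher and 7 (8.33%) lower. Their summed level was 160094, 197396 and 208190 TPM with wild-type MEK and 190378, 154230 and 187014 TPM with MEK F53S, where the groups overlapped. These lists share all 6 libraries with the members, and differences between lists were not tested.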

How the data were processed

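The table of each library gives, per gene, an estimated count and a TPM value beside the length and effective length, per the file headers. The authors quantified reads with Salmon 0.8.2 and name the build dm6, per the submitters' processing notes. The libraries were directional, per the labels' protocols. For the annotation, strand setting and bias options: not given in the sources used here. The estimated counts deposited by the authors need not be whole and are not scaled for depth. The deposited TPM values are scaled for length and to a fixed total. The other deposited columns, the length and effective length in bases, are estimates per library, per the file headers.

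Of 13943 identifiers, 13831 were matched to a symbol. Positions came from an annotation of the same dm6 assembly. Estimated counts were rounded, genes were filtered with filterByExpr (minimum count 10, minimum total 15), scaled by TMM and tested by quasi-likelihood in edgeR 4.0.16 (R 4.3.3) over all 7539 genes, without covariates. Benjamini-Hochberg adjustment ran over all tested genes, and an adjusted p under 0.05 was a call. CPM are TMM-normalised, folds are MEK F53S over wild-type MEK, values are mean ± SD, and SE comes from the F statistic of the fit. Alternatives covered RLE and upper-quartile scaling, no filter, DESeq2 1.42.0, limma 3.58.1 on log2(TPM + 1) and log2(TPM + 0.1), the effective length as an offset, a removed trend with gene length, the fit without mitochondrially encoded genes, the replicate number as a block, and leaving out each library. The test was tested on simulated data.

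Members and lists were chosen with earlier results of these data known. Members named with values were those called, in each direction the 6 of smallest p, the 5 highest and 5 lowest by mean TPM, and others as stated. No library repeats another: between replicates chi-square divided by its degrees of freedom was 29.6 or more. Neither promoters nor other sequences were analysed here.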

Additional observations from a re-analysis of the deposited data

How the results depend on the processing

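The 24 members that the rule for named genes takes were compared with their main values under 16 alternatives. Direction and side of the threshold were kept in 321 comparisons, 34 lost the call, 12 gained one and 17 changed sign, all of the last among members that were not called. The cause of these changes was not tested. Against 9 members called higher, 5 were called with the effective length offset and 5 with the length trend removed, and between 4 and 12 when 1 library was left out. Against 1 called lower, 2 were called with RLE scaling, with DESeq2 and with limma at either pseudocount, 3 with the length trend removed, and between 1 and 5 when 1 library was left out. In the large subunit, 5 higher calls became 2 with the effective length offset and 3 with the length trend removed, and ranged from 2 to 7 when 1 library was left out. The 1 lower call there became 2 with RLE, DESeq2 and limma and 3 with the length trend removed, and ranged from 1 to 4. In the small subunit, 4 higher calls became 2 with the length trend removed, and ranged from 1 to 5, and the 0 lower calls ranged from 0 to 1. Over all tested genes, 930 higher calls ranged from 424 to 1304 and 970 lower calls from 506 to 1310 when 1 library was left out, and limma gave 572 and 562 lower calls with pseudocounts of 1 and 0.1. The median log2 fold change of members ranged from 0.15 to 0.34 when 1 library was left out, that of large-subunit members from 0.15 to 0.40 and that of small-subunit members from 0.12 to 0.28. Rescaling TPM without mitochondrially encoded genes moved the sum over members with wild-type MEK from 4732 to 5013 TPM.

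The labels do not say whether libraries with the same replicate number belong together. Deviations from the group means of libraries with the same number correlated at -0.06, -0.12 and 0.11 over genes. Not every library correlated best with its own number, but both libraries numbered 3 did. These correlations cannot decide whether the libraries are paired, since deviations within a group of 3 are not independent. With the replicate number as a block, 6 members were called higher and 1 lower, 2 small-subunit members were called higher, and 744 and 742 genes in all were called higher and lower.

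Among these 24 members, 5 changed sign. The log2 fold change of mRpL19 was -0.078 with the effective length offset and -0.059 with the length trend removed, and ranged from -0.11 to 0.19 when 1 library was left out. That of mRpL21 was 0.072 with the effective length offset. That of mRpL30 ranged from -0.29 to 0.0085 when 1 library was left out and that of mRpS25 from -0.022 to 0.74. That of mRpS30 was -0.0093 with RLE scaling and with DESeq2, -0.0046 with limma at either pseudocount, -0.13 with the effective length offset and -0.097 with the length trend removed, and ranged from -0.079 to 0.086 when 1 library was left out. mRpL55 and mRpL43, the lowest members by TPM, have SE of 0.98 and 0.69.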
